A study of Rattus norvegicus and Mus musculus with 24 samples.

Results

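The genes described here are 40 genes of mitochondrial fatty acid oxidation and ketone body metabolism, followed in the kidneys of Ctns knockout (Ctns KO) and wild-type (Ctns WT) mice and rats. They were taken as the rows whose symbol matched a list of names, and all 40 were found among the 17376 symbols of the mouse table and among the 14931 symbols of the rat table. The mice were 4 Ctns KO and 4 Ctns WT animals of a C57BL/6 background, and female by the methods of the study, and the rats were 8 Ctns KO and 8 Ctns WT animals of a Sprague-Dawley background. Ctns WT animals were littermates of the Ctns KO animals, and no treatment is named for any of them. The knockout lines lack Ctns, the gene of the lysosomal cystine carrier, in the whole animal and not in the kidney alone. The animal numbers of the rats form a range from 17 to 24 and a range from 25 to 32, each with 4 Ctns KO and 4 Ctns WT rats. What separates the ranges, the age of the sequenced mice, and the age and sex of the sequenced rats are not given in the sources used here. The labels name kidney cortex as tissue and proximal tubule cells as cell type, with an extraction from dissected proximal tubules.

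Mitochondrial fatty acid oxidation takes up fatty acids, activates them to acyl-CoA esters, carries long chains into the matrix by the carnitine shuttle, and shortens them in repeated rounds of dehydrogenation, hydration, dehydrogenation and thiolysis. The electrons leave through FAD and the electron transfer flavoprotein or through NADH, and the acetyl-CoA enters the citric acid cycle or ketone bodies. Proximal tubule (PT) cells rely on this pathway for most of the ATP that drives reabsorption, and they also burn ketone bodies; PPARA and its coactivator PPARGC1A are known regulators of the genes.

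The libraries held 19309371 to 44449843 reads on genes per mouse and 24684097 to 40629873 per rat. CTNS itself, with a scaled value of 0.824 to 1.03 in Ctns WT mice, read 0.319 to 0.342 in Ctns KO mice, so the groups did not overlap. In rats the CTNS level was 19.2 to 27.8 CPM (counts scaled to 1000000 reads) in Ctns WT and 16.8 to 22.2 CPM in Ctns KO kidneys, and these overlapping values do not check the labels. Markers of podocytes and of the thick limb and later segments were present in every library beside those of the PT, so the libraries were not of PT cells alone.

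The genes as a whole read lower in Ctns KO kidneys. Their summed level was 304 to 326 in Ctns WT mice and 268 to 285 in Ctns KO mice, in units of the deposited scaled value, in which the 75th percentile of a library is 1. In rats 17 to 24 it was 10166 to 11235 CPM in Ctns WT and 8934 to 9490 CPM in Ctns KO animals, and in rats 25 to 32 it was 11010 to 12410 against 8334 to 8962 CPM. The summed levels of the genotypes did not overlap in the mice or in either range of rats, and they stayed apart when the most abundant gene of each species was left out (222 to 242 against 195 to 215 in mice without SLC27A2, and 8704 to 10879 against 7033 to 8058 CPM in rats without OXCT1).

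The summed level of the PT markers was also lower in Ctns KO animals. It was 350 to 452 in Ctns WT and 325 to 343 in Ctns KO mice, 12288 to 14638 against 10551 to 11257 CPM in rats 17 to 24, and 15946 to 18199 against 8280 to 10080 CPM in rats 25 to 32. Of the PT markers tested, 0 of 11 passed in mice with limma (3 were lower at an unadjusted p under 0.05) and 7 of 10 fell in rats with edgeR, among them SLC34A1 (log2 fold change -0.63) and HNF4A (-0.69), while LRP2 and SLC5A12 were not in the rat table. Over all genes tested, 6.52% were called higher and 2.28% lower in mice, and 15.2% and 12.3% in rats. Fibroblast markers rose in 3 of 5 cases in mice and 5 of 5 in rats, from a summed level of 189 to 212 to one of 234 to 454 CPM in rats, and macrophage markers rose in 5 of 6 cases in each species. Markers of tubular injury rose in 3 of 4 cases in mice and 3 of 3 in rats, where their sum was 20.4 to 33.4 CPM in Ctns WT and 58.0 to 367 CPM in Ctns KO animals. Of the 4 lymphocyte markers listed, 2 of 2 tested rose in rats (edgeR), and 0 of 3 tested passed in mice (limma, with 0 at an unadjusted p under 0.05). Of the 7 markers listed for the thick limb and later segments, only UMOD, SLC12A1 and CALB1 were in the rat table. These 3 summed to 2822 to 3486 CPM in Ctns WT and 3946 to 4782 CPM in Ctns KO rats 25 to 32. There edgeR called UMOD and CALB1 higher (log2 fold change 0.63 and 0.49) and not SLC12A1 (-0.08), where 23.7% of all genes were called higher. The genotypes overlapped in rats 17 to 24. In mice the 7 markers summed to 169.6 to 200.5 in Ctns WT and 201.3 to 225.1 in Ctns KO animals. Of the 7, limma called 1 higher, and 2 had a log2 fold change below 0. Podocyte markers summed to 515.3 to 620.3 CPM in Ctns WT and 424.4 to 514.6 CPM in Ctns KO rats 25 to 32. There 2 of 4 were called lower (edgeR), where 26.2% of all genes were. The podocyte sums of the genotypes overlapped in rats 17 to 24 and in mice. In these bulk samples fewer PT cells and less RNA per PT cell cannot be told apart, and the part of cell composition in the results below was not tested.

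**Figure D1:**
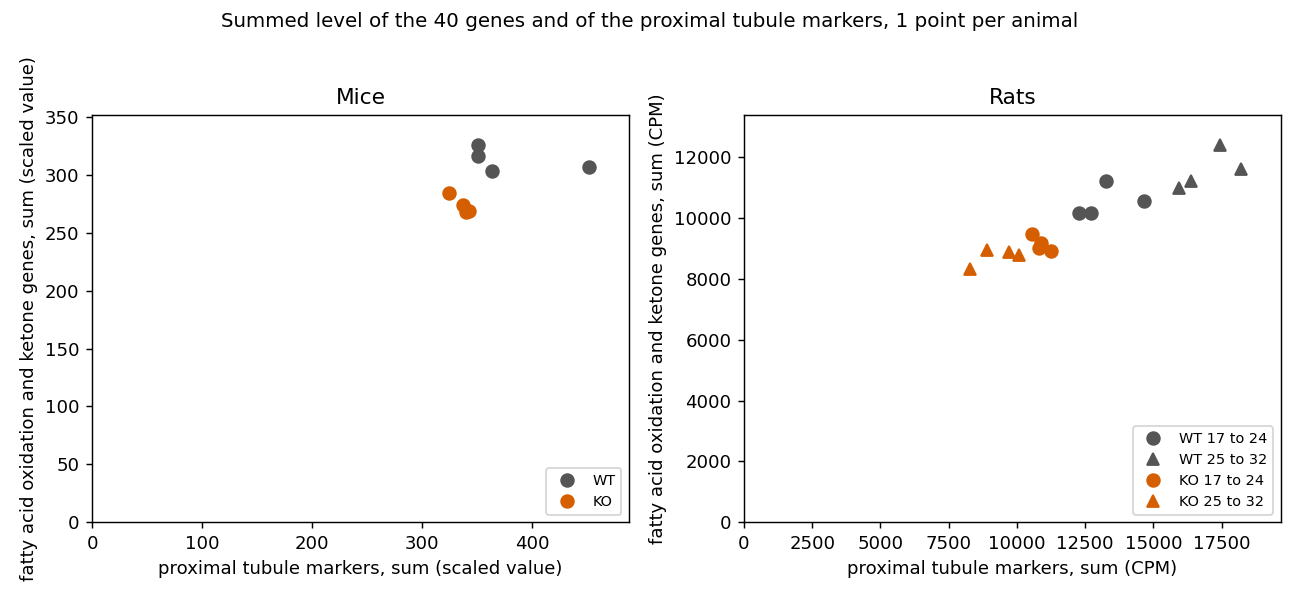
Summed level of the 40 fatty acid oxidation and ketone genes (vertical axis) against the summed level of the PT markers (horizontal axis), in scaled values for mice and CPM for rats, with 1 point per animal, grey for Ctns WT and orange for Ctns KO. Ctns KO animals lie below Ctns WT animals on the vertical axis, from 8334 to 9490 CPM against 10166 to 12410 CPM in rats, and also to their left.

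Gene by gene, the quasi-likelihood test of edgeR, adjusted over all genes by the Benjamini-Hochberg method, called 17 of the 38 tested genes lower and 3 higher in Ctns KO rats, at an adjusted p under 0.05. Over all 11584 rat genes tested, 12.3% were called lower and 15.2% higher. The median log2 fold change was -0.26 for these genes and -0.02 for all genes. In 8 genes every Ctns KO rat was below every Ctns WT rat and in 2 every Ctns KO rat was above, against 1.95% and 3.89% of all rat genes. The other 2 genes, FABP1 and ECHS1, had too few reads in rats to be tested.

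In mice limma called 2 of 40 genes lower, ACAD11 and HADH, and 0 higher, where 2.28% of all 13132 symbols tested were lower and 6.52% higher. At an unadjusted p under 0.05 limma gave 10 genes lower and 1 higher, and edgeR on reads recovered from the deposited values gave 14 lower and 0 higher, of which 2 passed adjustment. Over all 13442 symbols in that edgeR fit, 383 were lower and 815 higher after adjustment. The shares of all symbols at an unadjusted p under 0.05 are not given here, so the unadjusted counts have no background beside them. The limma count of 2 lower genes became 6 without Ctns WT mouse 2, 0 without Ctns KO mouse 6 and 1 without any of Ctns WT mouse 4 and Ctns KO mice 3, 5 and 8. The median log2 fold change was -0.13, against 0.01 for all symbols, and the fold change was below 0 for 32 of 40 genes. Groups of mice did not overlap for 4 genes, all lower in Ctns KO (ACAD11, HADH, SLC27A2 and ACADS), against 4.96% of all symbols lower without overlap and 9.26% higher. ACAD11 and HADH were the only genes of the 38 tested in both species that were called lower in both, and none was called in opposite directions.

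**Figure D2:**
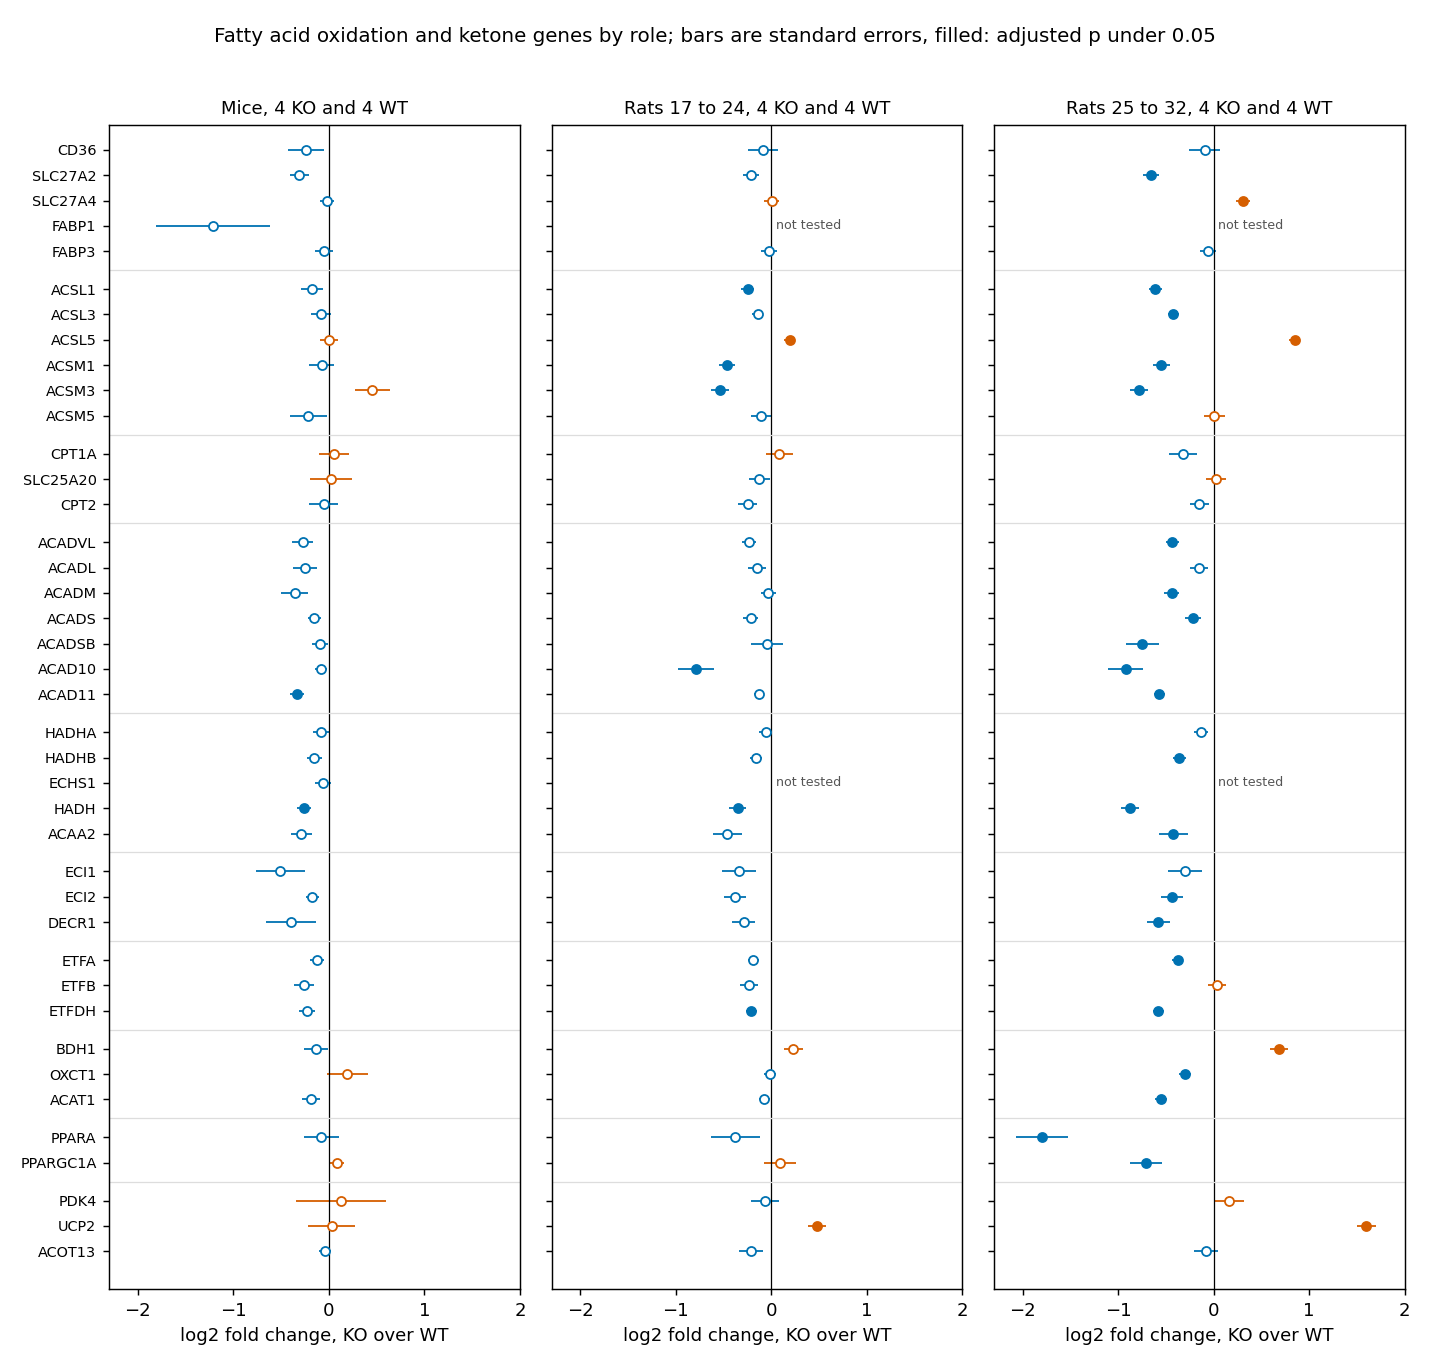
Log2 fold change of Ctns KO over Ctns WT (horizontal axis) for each gene, grouped by role from uptake at the top to fuel selection at the bottom, in mice (left), rats 17 to 24 (middle) and rats 25 to 32 (right). Bars are standard errors, filled points have an adjusted p under 0.05 (limma in mice, edgeR in rats), and most filled points lie below 0, with 22 lower and 4 higher in rats 25 to 32.

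The fall was larger in the rats numbered 25 to 32. In one edgeR model of the 4 groups of rats, 6 genes were called lower and 2 higher in rats 17 to 24, where 1.91% and 5.05% of all 11839 genes tested were. DESeq2 on these 8 rats alone called 13 lower. The share of all genes that DESeq2 called lower there is not given here, so 1.91% is not the background of that count. In rats 25 to 32, 22 genes were called lower and 4 higher, where 26.2% and 23.7% of all genes were. The median log2 fold changes were -0.15 and -0.37, against -0.01 over all genes in each range. The genes lower in both ranges were ACSL1, ACSM1, ACSM3, ACAD10, HADH and ETFDH, those higher in both were ACSL5 and UCP2, and 12 genes were called in neither. The counts in rats 17 to 24 rest on single animals: 2 genes were lower without Ctns KO rat 22, 3 without Ctns WT rat 21 or Ctns KO rat 24, and 1 was higher without any of Ctns WT rats 19, 21 and 23 and Ctns KO rats 18, 20, 22, 24 and 28. The difference between the ranges was itself called for 14 genes, of which 11 had a lower and 3 a higher Ctns KO effect in rats 25 to 32, where 7.64% and 7.10% of all genes were called in these directions, and the count was 9 without Ctns KO rat 28.

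Wild-type rats of the ranges also differed from each other. Of the 38 genes, 6 were higher and 4 lower in Ctns WT rats 25 to 32 than in Ctns WT rats 17 to 24 (edgeR), where 11.7% and 9.43% of all genes were. The higher genes were CPT1A, ACADVL, ACADM, HADHA, HADH and ACAT1, led by ACADM with a log2 difference of 0.58 (SE 0.08), and the lower ones were ACSL1, ACSM5, ACAA2 and PDK4, led by ACSM5 with -0.89 (SE 0.11).

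Uptake and binding. Of the genes that bring fatty acids into the cell, SLC27A2, the transporter and very-long-chain acyl-CoA synthetase of the PT, was the most abundant per length of all 40 genes in Ctns WT mice, at 1042 reads per kilobase of exon and 1000000 reads (SD 46.1, n = 4). Its scaled value was 84.3, 84.6, 76.8 and 86.9 in Ctns WT mice 1, 2, 4 and 7 and 73.8, 62.9, 59.0 and 73.9 in Ctns KO mice 3, 5, 6 and 8. Each Ctns KO mouse was below each Ctns WT mouse, although the log2 fold change of -0.31 (SE 0.10) did not pass the test (limma adjusted p = 0.082). In rats SLC27A2 fell from a median of 738 CPM (645 to 858) to 540.5 CPM (429 to 728), a log2 fold change of -0.41 (SE 0.11, edgeR adjusted p = 0.00854). The fall was -0.21 in rats 17 to 24 (adjusted p = 0.178) and -0.66 in rats 25 to 32 (adjusted p = 1.14e-05), and the ranges differed (adjusted p = 0.024).

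The fatty acid translocase CD36 and the cytosolic binding protein FABP3 were not called in either species, with rat log2 fold changes of -0.09 (SE 0.13) and -0.04 (SE 0.06). CD36 values in 12 of 16 rats were not whole reads and are uncertain to that extent. SLC27A4, another acyl-CoA synthetase and transporter, rose in rats 25 to 32 by 0.31 on the log2 scale (SE 0.08, edgeR adjusted p = 0.00287) and read 0.00 in rats 17 to 24 (adjusted p = 0.988). The row of the liver-type binding protein FABP1 had a mean of 0.0678 CPM in Ctns WT and 0.0121 CPM in Ctns KO rats. The rat table carries symbols in human style, and it could not be settled that this row holds the reads of the rat gene.

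Activation to acyl-CoA. Of the 6 ligases and synthetases that join fatty acids to coenzyme A, ACSL3, ACSM1 and ACSM3 fell and ACSL5 rose in rats. In mice 0 of 6 passed with limma or edgeR, and ACSM3 alone had an unadjusted p under 0.05 with limma. The medium-chain synthetase ACSM3 ranged from 1210 to 1577 CPM (median 1259) in Ctns WT rats and from 760 to 958 CPM (median 803) in Ctns KO rats. Every Ctns KO rat was below every Ctns WT rat, with a log2 fold change of -0.66 (SE 0.08, edgeR adjusted p = 1.5e-05). In mice ACSM3 was the least abundant of the 40 genes per length, at 0.742 reads on that scale in Ctns WT. Its scaled values there were 0.075, 0.128, 0.017 and 0.095 in Ctns WT and 0.121, 0.161, 0.138 and 0.135 in Ctns KO mice, with a limma adjusted p of 0.203.

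ACSM1, another medium-chain synthetase, fell from a median of 104 CPM (85.2 to 114) to 70.4 CPM (63.7 to 83.7) in rats, again without overlap, with a log2 fold change of -0.50 (SE 0.06, edgeR adjusted p = 3.8e-05). In every rat its value was the same as that listed for ACSM2B, so which of these related genes the reads came from is uncertain. ACSM5 was not called (rat log2 fold change -0.06, SE 0.21).

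The long-chain synthetases parted. ACSL5 read 55.6, 52.5, 50.8 and 47.8 CPM in Ctns WT rats 17, 19, 21 and 23, and 59.3, 59.1, 56.5 and 61.6 CPM in Ctns KO rats 18, 20, 22 and 24. It read 48.8, 46.4, 45.2 and 47.4 CPM in Ctns WT rats 25, 27, 29 and 31, and 79.1, 86.1, 89.8 and 84.1 CPM in Ctns KO rats 26, 28, 30 and 32. Every Ctns KO rat was thus above every Ctns WT rat, by a small step in the first range and a large one in the second. Over all rats the log2 fold change was 0.54 (SE 0.10, edgeR adjusted p = 0.000819), 0.19 in rats 17 to 24 and 0.85 in rats 25 to 32, and the ranges differed by 0.65 (SE 0.08, adjusted p = 0.000132).

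ACSL3 moved the other way, from a median of 113 CPM (105 to 131) to 94.1 CPM (85.6 to 102), and no values overlapped (log2 fold change -0.28, SE 0.06, edgeR adjusted p = 0.0016). ACSL1, the main long-chain synthetase of oxidative tissues, missed the threshold over all rats (log2 fold change -0.39, SE 0.15, edgeR adjusted p = 0.053) but was called within each range, at -0.25 in rats 17 to 24 (adjusted p = 0.03) and -0.61 in rats 25 to 32 (adjusted p = 1.26e-06). Its Ctns WT level differed between the ranges by -0.36.

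The carnitine shuttle. CPT1A, the liver-type carnitine palmitoyltransferase that is the committed step of long-chain import, was not called in either species. Its scaled value was 15.1, 16.7, 11 and 9.98 in Ctns WT and 13.8, 14.2, 14.5 and 11.2 in Ctns KO mice. In rats it ranged from 173 to 390 CPM (median 295) in Ctns WT and from 226 to 309 CPM (median 268) in Ctns KO animals, so that the Ctns KO rats lay inside the span of the Ctns WT rats. The log2 fold change was 0.05 in mice (SE 0.16, limma adjusted p = 0.898) and -0.13 in rats (SE 0.12, edgeR adjusted p = 0.463). The carrier SLC25A20 and the inner-membrane enzyme CPT2 read -0.04 (SE 0.09) and -0.19 (SE 0.08) in rats, and neither was called in the mice, in all rats or in either range.

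Acyl-CoA dehydrogenases. These FAD enzymes open each round of oxidation and differ in the chain length they accept. In rats ACADVL, ACADS, ACAD10 and ACAD11 were called lower over all animals, and within rats 25 to 32 all but ACADL of the 7 were. In mice ACAD11 was called.

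ACAD11, which acts on long chains and on hydroxylated acids, had scaled values of 8.96, 7.84, 9.49 and 8.10 in Ctns WT mice 1, 2, 4 and 7 and of 6.79, 6.86, 6.52 and 7.01 in Ctns KO mice 3, 5, 6 and 8. The groups were apart, and the log2 fold change was -0.33 (SE 0.07, limma adjusted p = 0.013), although without Ctns KO mouse 6 the adjusted p was 0.0549. In the mouse genome (mm10) the gene spans chr9:104063377-104127725 on the plus strand. In rats 17 to 24 it read 95.9, 98.7, 104 and 105 CPM in Ctns WT and 95.9, 90.2, 92.7 and 91.3 CPM in Ctns KO animals, which overlapped. In rats 25 to 32 it read 114, 104, 110 and 106 CPM against 79.7, 70.5, 74.4 and 69.1 CPM, which did not. Log2 fold changes were -0.13 in the first range (edgeR adjusted p = 0.2) and -0.57 in the second (adjusted p = 3.46e-07), and the difference of -0.44 (SE 0.08) was called (adjusted p = 0.00175).

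ACAD10, a relative of ACAD11 with less known substrates, had the largest fall of the enzymes in rats, from a median of 284 CPM (202 to 314) to 164 CPM (104 to 197), with no overlap (log2 fold change -0.86, SE 0.14, edgeR adjusted p = 0.000378). The change was -0.79 (SE 0.18) in the first range and -0.92 (SE 0.18) in the second, and their difference of -0.13 (SE 0.26) was not called. In mice ACAD10 read 1.30, 1.40, 1.26 and 1.25 in Ctns WT and 1.29, 1.22, 1.10 and 1.28 in Ctns KO animals (limma adjusted p = 0.492), and 4 of those values were not whole reads.

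The very-long-chain enzyme ACADVL fell from 282 to 402 CPM in Ctns WT to 238 to 281 CPM in Ctns KO rats without overlap (log2 fold change -0.33, SE 0.07, edgeR adjusted p = 0.00161), and the short-chain enzyme ACADS fell by 0.21 on the log2 scale (SE 0.07, adjusted p = 0.033). The call of ACADS was lost, at an adjusted p of 0.0537 to 0.0856, without any of Ctns WT rats 25, 29 and 31 and Ctns KO rats 18, 20, 24 and 30. The medium-chain enzyme ACADM was the most abundant dehydrogenase of the group per length in Ctns WT mice (274 reads on that scale, SD 59.6). In rats its effect was called in the second range (-0.44, SE 0.08, edgeR adjusted p = 0.000203) and not in the first (-0.03, SE 0.08), and the ranges differed (adjusted p = 0.022). ACADSB, which handles branched short chains, read -0.75 in rats 25 to 32 (SE 0.17, adjusted p = 0.00178). ACADL was not called in any comparison of genotypes, with -0.15 (SE 0.09) over all rats.

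Hydration, dehydrogenation and thiolysis. HADH, the short-chain 3-hydroxyacyl-CoA dehydrogenase of the matrix, was lower in both species. Its scaled value was 14.5, 12.3, 12.9 and 12.1 in Ctns WT and 10.8, 10.7, 10.7 and 10.8 in Ctns KO mice, with log2 fold change -0.26 (SE 0.07, limma adjusted p = 0.04). The Ctns KO mice were nearly alike and all lower than the Ctns WT mice, but the call is close to the threshold: with a pseudocount of 1 the adjusted p was 0.0502, and it passed in 2 of the 8 fits that left out 1 mouse, being 0.0766 to 0.121 without any of Ctns WT mice 1 and 4 and Ctns KO mice 3, 5, 6 and 8. In mm10 the gene spans chr3:131233419-131272101 on the minus strand.

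In rats HADH read 202, 221, 227 and 280 CPM in Ctns WT rats 17 to 23 and 193, 188, 185 and 163 CPM in Ctns KO rats 18 to 24. It read 287, 296, 316 and 284 CPM in Ctns WT rats 25 to 31 and 182, 160, 143 and 162 CPM in Ctns KO rats 26 to 32. No Ctns KO rat reached the lowest Ctns WT rat of either range. Over all rats HADH changed by -0.62 on the log2 scale (SE 0.09, edgeR adjusted p = 0.000164), -0.35 in the first range and -0.87 in the second, and the difference was called (adjusted p = 0.013). Among Ctns WT rats HADH was itself higher in the second range than in the first, by 0.35 (SE 0.09, adjusted p = 0.011).

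ACAA2, the mitochondrial 3-ketoacyl-CoA thiolase, ranged from 336 to 595 CPM (median 418) in Ctns WT and from 195 to 412 CPM (median 333) in Ctns KO rats. The groups overlapped, and the log2 fold change was -0.44 (SE 0.15, edgeR adjusted p = 0.034), with an adjusted p of 0.0526 to 0.0701 without any of Ctns WT rats 21, 23 and 31 and Ctns KO rats 26, 30 and 32. Both subunits of the trifunctional protein, which carries out the last steps for long chains, were measured. The beta subunit HADHB fell (log2 fold change -0.26, SE 0.06, edgeR adjusted p = 0.00258), and the alpha subunit HADHA read -0.09 (SE 0.07, adjusted p = 0.361). The difference between the subunits was not tested. The hydratase ECHS1 was not called in mice (-0.06, SE 0.08) and nearly without reads in the rat table, at a mean of 0.178 CPM in Ctns WT and 0.12 CPM in Ctns KO rats. For the same reason as with FABP1, that row does not show that the rat gene was silent.

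The genes of these subunits lie head to head and share a promoter region, which is shown because only one of them was called. In the rat genome (GRCr8, RefSeq) the annotated starts lie 301 bases apart, and in the mouse (mm10) 86 bases apart. The rat window below covers chr6:31907551-31907850 on the plus strand, from 250 bases before the HADHA start to 50 after it. Capitals mark the 200 bases that also belong to the HADHB window read from the other strand.
HADHA: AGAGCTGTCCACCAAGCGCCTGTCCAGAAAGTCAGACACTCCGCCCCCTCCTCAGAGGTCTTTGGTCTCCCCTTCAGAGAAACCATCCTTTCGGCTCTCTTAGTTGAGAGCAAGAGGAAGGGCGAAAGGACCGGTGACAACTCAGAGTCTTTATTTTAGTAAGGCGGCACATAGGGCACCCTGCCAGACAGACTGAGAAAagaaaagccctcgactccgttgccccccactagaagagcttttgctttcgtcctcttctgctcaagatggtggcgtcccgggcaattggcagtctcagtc

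Unsaturated fatty acids. The isomerase ECI2 and the reductase DECR1, which convert double bonds into forms the main spiral accepts, fell in rats, and the isomerase ECI1 did not pass the test. DECR1 ranged from 172 to 279 CPM (median 207) in Ctns WT and from 131 to 175 CPM (median 165) in Ctns KO rats, with a small overlap and a log2 fold change of -0.44 (SE 0.10, edgeR adjusted p = 0.00314). ECI2 read 468 to 719 CPM against 355 to 499 CPM (log2 fold change -0.40, SE 0.09, adjusted p = 0.00333), and ECI1 -0.31 (SE 0.16, adjusted p = 0.151).

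In mice the means of ECI1 and DECR1 fell by 0.51 and 0.40 on the log2 scale with large errors (SE 0.25 and 0.27). ECI1 read 3.64, 1.82, 3.81 and 2.02 in Ctns WT mice 1, 2, 4 and 7 and DECR1 read 9.26, 4.08, 7.35 and 4.46. The Ctns KO mice read 1.71 to 2.0 for ECI1 and 4.17 to 5.08 for DECR1. Ctns WT mice 1 and 4 were high for both genes, and Ctns WT mice 2 and 7 lay with the Ctns KO mice.

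**Figure D3:**
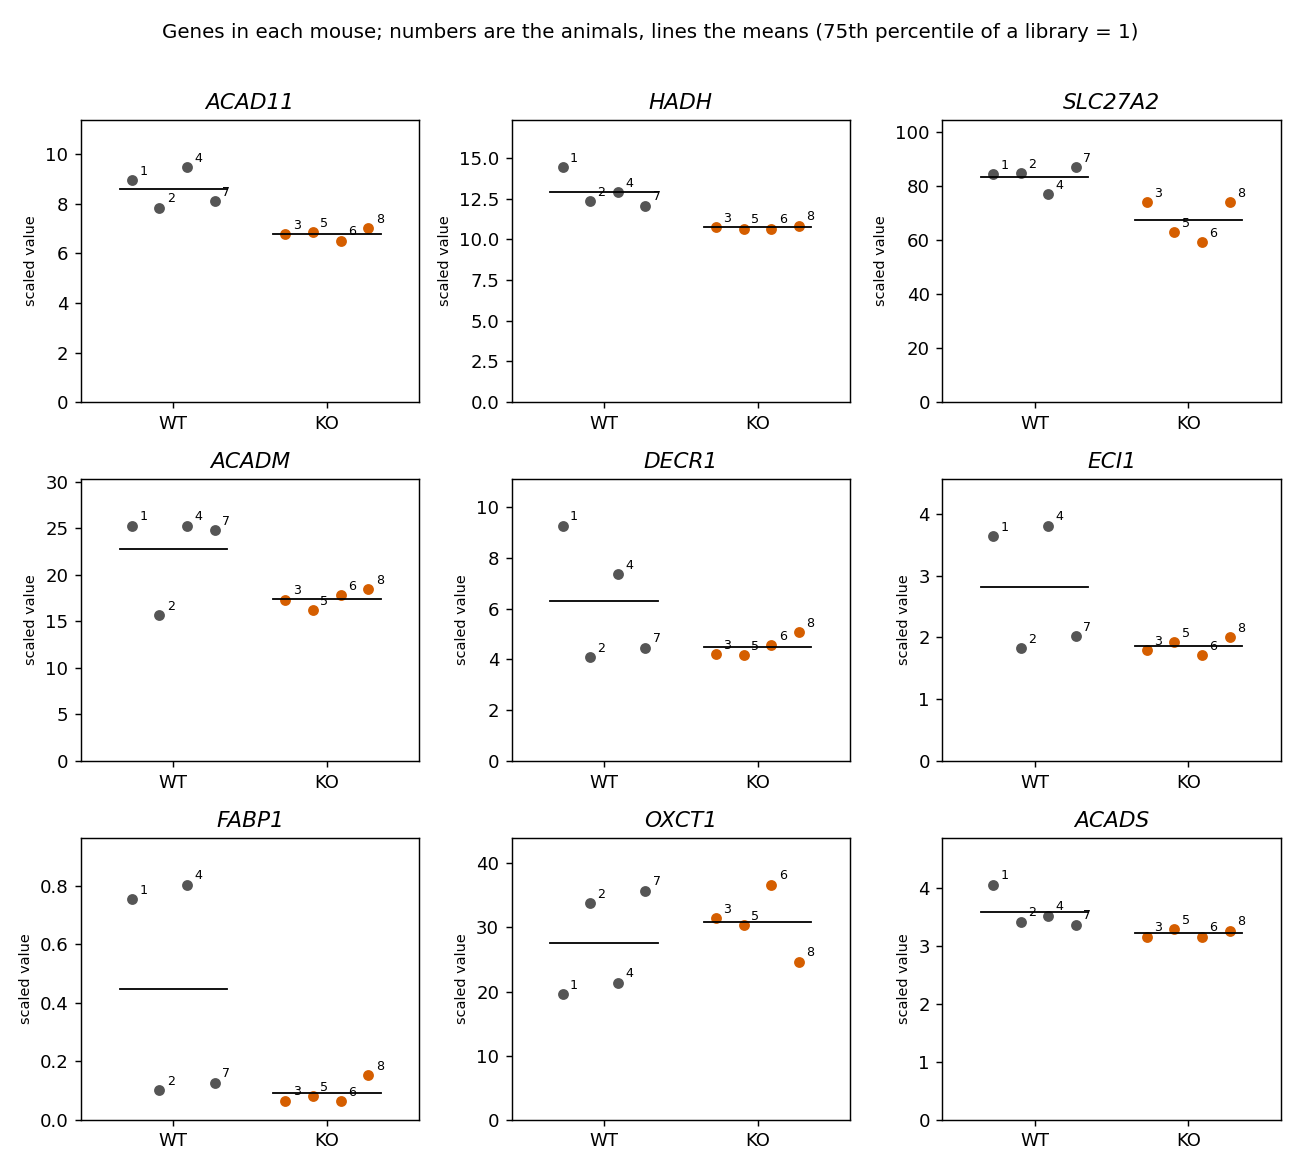
Scaled value (vertical axis, 75th percentile of a library = 1) in each Ctns WT mouse (grey) and Ctns KO mouse (orange), with the animal number beside each point and the group mean as a line. ACAD11, HADH, SLC27A2 and ACADS separate the genotypes, whereas DECR1, ECI1 and FABP1 are high in Ctns WT mice 1 and 4 only, as with DECR1 at 9.26 and 7.35.

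Electron transfer. ETFA and ETFB form the flavoprotein that takes electrons from the acyl-CoA dehydrogenases, and ETFDH passes them on to ubiquinone. ETFDH read 173, 177, 173 and 199 CPM in Ctns WT rats 17 to 23 and 162, 158, 157 and 148 CPM in Ctns KO rats 18 to 24. In rats 25 to 32 it read 200, 201, 204 and 197 CPM in Ctns WT and 145, 139, 128 and 126 CPM in Ctns KO animals. Every Ctns KO rat was below every Ctns WT rat, and the Ctns KO rats of the second range were lowest. The log2 fold change was -0.39 (SE 0.06, edgeR adjusted p = 0.000271), and it was -0.21 and -0.58 in the ranges, which differed (adjusted p = 0.00846). ETFA fell without overlap (log2 fold change -0.28, SE 0.05, adjusted p = 0.000838), and ETFB read -0.09 (SE 0.08, adjusted p = 0.42). In mice ETFDH was 6.27, 4.6, 5.71 and 5.13 in Ctns WT and 4.74, 4.63, 4.64 and 4.37 in Ctns KO animals (limma adjusted p = 0.137).

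Ketone bodies. BDH1 interconverts 3-hydroxybutyrate and acetoacetate, OXCT1 activates acetoacetate for burning and is the step that liver lacks, and ACAT1 is the thiolase at the end of both ketone use and isoleucine breakdown. They moved in different directions in rats. BDH1 ranged from 31 to 39.5 CPM (median 33.0) in Ctns WT and from 36.1 to 60.9 CPM (median 44.6) in Ctns KO rats, a log2 fold change of 0.48 (SE 0.10, edgeR adjusted p = 0.00232). The groups overlapped in rats 17 to 24, where the change was 0.23 (adjusted p = 0.173), and not in rats 25 to 32, where it was 0.68 (adjusted p = 1.7e-05), and the ranges differed (adjusted p = 0.033).

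ACAT1 read 676, 699, 670 and 763 CPM in Ctns WT and 680, 647, 679 and 667 CPM in Ctns KO rats of the first range. It read 815, 834, 860 and 883 CPM in Ctns WT and 566, 599, 532 and 633 CPM in Ctns KO rats of the second. The genotypes overlapped in the first range and were far apart in the second. The log2 fold changes were -0.07 (edgeR adjusted p = 0.621) and -0.55 (adjusted p = 1.86e-06), with a called difference of -0.48 (SE 0.09, adjusted p = 0.00252). OXCT1, the most abundant of the 40 genes by reads in Ctns WT rats with 1309 to 1624 CPM, read -0.15 over all rats (SE 0.06, adjusted p = 0.066) and -0.30 in rats 25 to 32 (SE 0.06, adjusted p = 0.000834). In mice ACAT1 read 11.1, 13.6, 10.3 and 12.9 in Ctns WT and 11.3, 10.3, 10.6 and 9.58 in Ctns KO animals, and 0 of the 3 ketone genes were called with limma, which also gave 0 at an unadjusted p under 0.05. On recovered reads edgeR called 0 as well and gave 1 of the 3 lower at an unadjusted p under 0.05.

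Regulators. PPARA, the nuclear receptor for fatty acids, had the largest fall of the 38 genes in rats. It read 21.3, 35.1, 28.3 and 29.1 CPM in Ctns WT rats 17, 19, 21 and 23 and 16.4, 20.8, 25.7 and 25.1 CPM in Ctns KO rats 18, 20, 22 and 24. It read 33.0, 47.4, 37.8 and 33.4 CPM in Ctns WT rats 25, 27, 29 and 31 and 17.2, 6.51, 13.5 and 6.27 CPM in Ctns KO rats 26, 28, 30 and 32. The genotypes overlapped in the first range, and in the second the highest Ctns KO rat was at about the level of the lowest Ctns KO rat of the first. The log2 fold change was -1.01 over all rats (SE 0.26, edgeR adjusted p = 0.0079), -0.38 in rats 17 to 24 (adjusted p = 0.503) and -1.80 in rats 25 to 32 (SE 0.27, adjusted p = 5.57e-05), and the difference was -1.42 (SE 0.37, adjusted p = 0.02).

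The coactivator PPARGC1A was not called over all rats (log2 fold change -0.24, SE 0.18, edgeR adjusted p = 0.347). It read 58.4, 60.6, 52.8 and 63.1 CPM in Ctns WT and 58.9, 61.4, 65.6 and 64.6 CPM in Ctns KO rats 17 to 24. In rats 25 to 32 it read 63.0, 69.3, 48.9 and 44.7 CPM in Ctns WT and 39.5, 28.7, 46.6 and 23.9 CPM in Ctns KO animals. The second range overlapped by 1 Ctns KO rat above 1 Ctns WT rat, with a log2 fold change of -0.71 (SE 0.17, adjusted p = 0.00276), and the first range leaned the other way at 0.09 (SE 0.17). The difference between ranges was called (-0.80, SE 0.24, adjusted p = 0.035).

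In mice neither regulator was called. PPARA read 1.93, 3.37, 1.85 and 2.01 in Ctns WT and 2.39, 1.97, 2.12 and 1.93 in Ctns KO mice, where Ctns WT mouse 2 alone was high (log2 fold change -0.08, SE 0.18, limma adjusted p = 0.86). PPARGC1A read 2.51, 2.89, 3.09 and 2.80 in Ctns WT and 2.81, 3.21, 2.87 and 3.11 in Ctns KO mice (log2 fold change 0.09, SE 0.07, adjusted p = 0.547).

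PPARA binds DNA with RXR at 2 copies of the element AGGTCA with 1 base between them, and the rat promoter windows were searched for it. Windows run from 250 bases before to 50 after the RefSeq start in GRCr8, on either strand, and 37 of the 40 genes had one; ACADL, ACAA2 and DECR1 had none. With up to 2 mismatches in the 12 fixed bases the repeat was found in 6 of 37 windows (16.2%), against 3.77% of all 33469 rat windows, and with up to 1 mismatch in 2 of 37 (5.41%), against 0.439%. An exact copy was in 0 of 37 windows and in 0.0538% of all. The 37 windows are 1 per gene, whereas the 33469 are every window given and are not limited to genes tested here. The 6 genes were SLC27A2, FABP1, SLC25A20, ACADVL, ECHS1 and ETFA, of which SLC27A2, ACADVL and ETFA were called lower in rats, SLC25A20 was not, and FABP1 and ECHS1 were not tested. A match is a likeness of letters and not a shown binding site.

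The windows of the called genes among them are printed 5′ to 3′ along the gene, with the 13 matched bases in capitals. They lie at chr3:134257851-134258150 on the plus strand for SLC27A2, chr10:55236656-55236955 on the minus strand for ACADVL and chr8:64787916-64788215 on the minus strand for ETFA. The match of ACADVL is on the strand of the gene and has 1 mismatch, beginning 17 bases before the start, while those of SLC27A2 and ETFA are on the other strand and have 2 mismatches, beginning 76 and 154 bases before it.
SLC27A2: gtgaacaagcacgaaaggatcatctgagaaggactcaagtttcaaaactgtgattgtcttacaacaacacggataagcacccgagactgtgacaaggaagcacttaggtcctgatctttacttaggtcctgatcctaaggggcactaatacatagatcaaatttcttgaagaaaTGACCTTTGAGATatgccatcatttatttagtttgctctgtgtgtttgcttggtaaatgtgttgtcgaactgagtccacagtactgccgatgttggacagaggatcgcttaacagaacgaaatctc
ACADVL: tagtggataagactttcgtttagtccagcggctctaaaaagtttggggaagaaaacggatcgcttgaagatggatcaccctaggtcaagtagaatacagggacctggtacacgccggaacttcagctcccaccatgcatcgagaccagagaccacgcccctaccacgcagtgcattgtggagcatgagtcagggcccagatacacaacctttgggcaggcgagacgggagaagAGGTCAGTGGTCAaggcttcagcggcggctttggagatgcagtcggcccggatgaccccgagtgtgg
ETFA: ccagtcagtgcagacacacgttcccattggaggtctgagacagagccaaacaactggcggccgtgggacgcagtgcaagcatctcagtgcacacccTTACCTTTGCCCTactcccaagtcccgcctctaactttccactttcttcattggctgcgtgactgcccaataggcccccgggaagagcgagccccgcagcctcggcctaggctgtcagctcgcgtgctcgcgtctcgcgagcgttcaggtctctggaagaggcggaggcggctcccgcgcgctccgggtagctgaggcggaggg

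Fuel selection, uncoupling and thioesterase. UCP2, an inner-membrane carrier that exports C4 metabolites and is linked to a shift from glucose to fatty acid burning, had the largest rise. It read 35.9, 39.98, 38.5 and 38.2 CPM in Ctns WT rats 17, 19, 21 and 23 and 52.8, 54.3, 48.1 and 58.0 CPM in Ctns KO rats 18, 20, 22 and 24. It read 40.9, 39.9, 46.7 and 46.1 CPM in Ctns WT rats 25, 27, 29 and 31 and 122, 166, 121 and 119 CPM in Ctns KO rats 26, 28, 30 and 32. All Ctns KO rats were above all Ctns WT rats, and the second range was higher than the first among Ctns KO rats. The log2 fold change was 1.18 over all rats (SE 0.23, edgeR adjusted p = 0.00143), 0.48 in the first range and 1.6 in the second, with a difference of 1.12 (SE 0.14, adjusted p = 0.000132). UCP2 is also abundant in macrophages, whose markers summed to 86.3 to 110 CPM in Ctns WT and 133 to 148 CPM in Ctns KO rats 17 to 24, and to 123 to 150 against 258 to 361 CPM in rats 25 to 32. Their part in the rise of UCP2 was not tested.

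In mice UCP2 read 3.74, 2.27, 3.76 and 1.81 in Ctns WT and 2.68, 2.94, 3.16 and 2.54 in Ctns KO animals, with the Ctns KO mice inside the span of the Ctns WT mice (log2 fold change 0.03, SE 0.24, limma adjusted p = 0.963). PDK4, the kinase that shuts pyruvate dehydrogenase in fasting, read 0.777, 0.649, 0.216 and 0.265 in Ctns WT and 0.492, 0.519, 0.814 and 0.222 in Ctns KO mice (log2 fold change 0.13, SE 0.47). In rats it ranged from 12.3 to 24.9 CPM (median 17.6) in Ctns WT and from 11.9 to 22.8 CPM (median 18.8) in Ctns KO animals, with log2 fold change 0.03 (SE 0.16, edgeR adjusted p = 0.897). The thioesterase ACOT13 was not called in either species (rat log2 fold change -0.14, SE 0.09).

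**Figure D4:**
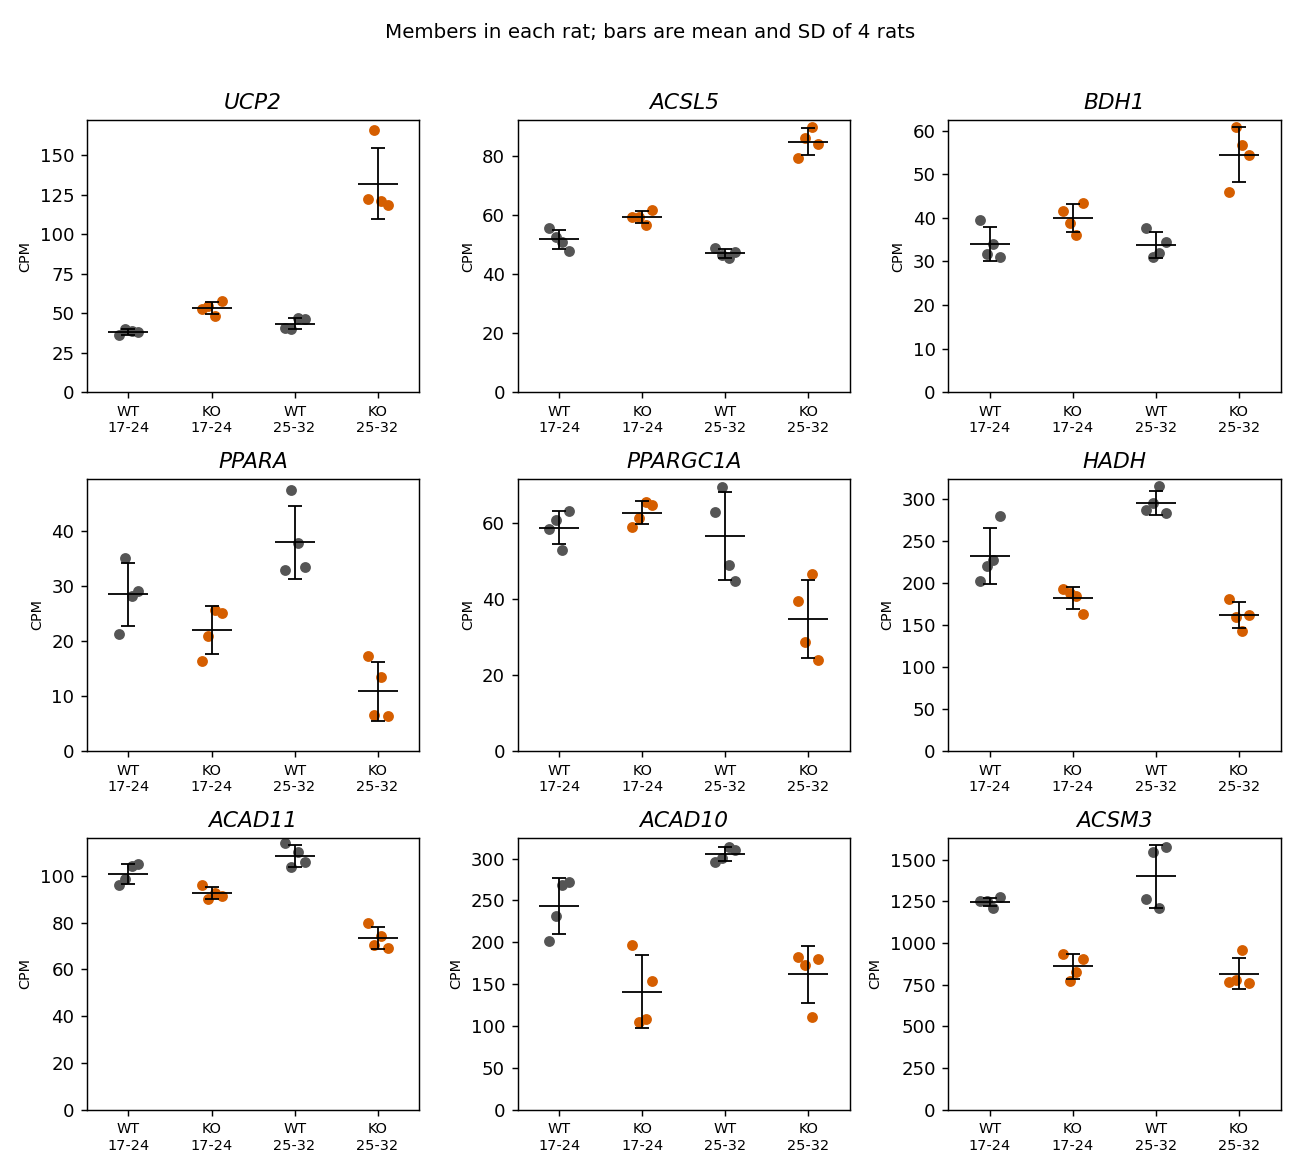
CPM (vertical axis, from 0) of 9 genes in each rat, Ctns WT in grey and Ctns KO in orange, by animal number range, with the mean and SD of the 4 rats of each group. UCP2, ACSL5 and BDH1 are highest in Ctns KO rats 25 to 32, where UCP2 reads 119 to 166 CPM, PPARA and ACAD11 are lowest there, and ACAD10 and ACSM3 are lower in Ctns KO rats of both ranges.

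The other values of the named genes in mice were not called. ACSL5 read 2.93, 2.11, 2.74 and 2.77 in Ctns WT and 2.46, 2.72, 2.89 and 2.45 in Ctns KO mice. ACSM1 read 4.0, 5.77, 4.31 and 5.99 against 5.44, 4.40, 4.33 and 4.64. BDH1 read 1.94, 2.22, 2.36 and 3.16 against 2.17, 1.96, 2.12 and 2.42, and ACAA2 read 11.4, 8.67, 11.6 and 8.41 against 8.49, 8.79, 7.60 and 7.51. For each of these the values of the genotypes overlapped.

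A wider list of 76 symbols covered carnitine supply, other activating enzymes and dehydrogenases, propionate, ketogenesis, malonyl-CoA control, lipid droplets and further regulators. In mice 1 of 68 tested rose and 2 fell with limma, where 6.52% and 2.28% of all symbols did, with a median log2 fold change of -0.07 against 0.01 over all symbols. In rats 5 of 61 tested rose and 24 fell with edgeR, where 15.2% and 12.3% of all genes did, with a median of -0.19 against -0.02 over all genes. The wider list holds ACSM2B, whose rat values are the same as those of ACSM1, so that measurement enters both lists. In mice CPT1C, a brain-type relative of CPT1A with little catalytic activity, rose by 0.51 on the log2 scale (adjusted p = 0.000499) from low values of 0.029 to 0.054 to ones of 0.088 to 0.124. The fallen pair were the pyruvate dehydrogenase kinase PDK2 (-0.27, adjusted p = 0.047) and the propionyl-CoA carboxylase subunit PCCB (-0.22, adjusted p = 0.041). In rats CPT1C was also called higher (0.63), and PDK2 (-0.53) and PCCB (-0.17) lower.

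The largest rises of the wider list in rats were ANGPTL4, a secreted inhibitor of lipoprotein lipase (log2 fold change 2.02, SE 0.45, edgeR adjusted p = 0.003), the synthetase SLC27A3 (1.65, SE 0.24, adjusted p = 0.000114) and the binding protein FABP4 (1.22, SE 0.28, adjusted p = 0.00397). ANGPTL4 ranged from 1.23 to 4.14 CPM in Ctns WT and from 2.71 to 20.7 CPM in Ctns KO rats, and SLC27A3 from 1.6 to 2.77 CPM to 2.99 to 10.7 CPM. FABP4 is also a gene of adipocytes and of vessel endothelium. The adipocyte markers of the rat table summed to 11.4 to 15.3 CPM in Ctns WT and 12.8 to 15.3 CPM in Ctns KO rats 17 to 24. In rats 25 to 32 they summed to 14.5 to 20.2 against 18.4 to 25.6 CPM. Among them CIDEC was called higher in each range (log2 fold change 1.54 and 0.65, edgeR adjusted p = 0.00567 and 0.0198), and ADIPOQ in neither. The part of adipocytes was not tested. Of the 4 endothelial markers listed, 3 were in the rat table (PECAM1 was not), and their sums were lower in Ctns KO rats. In rats 17 to 24 they summed to 280 to 293 CPM in Ctns WT against 263 to 276 CPM. In rats 25 to 32 the sums were 236 to 248 against 181 to 203 CPM. EdgeR called 1 of 3 lower in the first range, 2 in the second and 0 over all rats. Of all genes, 1.91%, 26.2% and 12.3% were called lower there. CDH5 leaned higher in the first range (log2 fold change 0.15, SE 0.10) and was not called in either range. The largest falls were those of the lipid droplet protein PLIN5 (-0.88, adjusted p = 0.028), the lyase HMGCLL1 (-0.85, adjusted p = 0.026) and the monoglyceride lipase MGLL (-0.73, adjusted p = 0.00116).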

How the data were processed

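Each animal gave 1 library, 24 in all. Per the labels' processing notes, bcl2fastq 2.20, STAR 2.7.3, DESeq2 1.24.0, R 3.6.1 and the builds mm10 and rn5 were used by the authors; libraries were stranded mRNA. For mice the authors deposited a scaled signal per human-style symbol; its values fit reads with 0.5 added, over the library's 75th percentile with 0.5 added (whole within 0.01 for 99.0% of values). For rats the authors deposited estimated counts, which are reads with 1/6 added (97.7% whole); the offset was removed and values rounded.

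Mouse values were tested with limma 3.58.1 (trend, robust) on log2(value + 0.1) for symbols with a mean of at least 0.01, so fold changes of low genes are understated. Rat reads were tested with edgeR 4.0.16 (quasi-likelihood, robust, TMM, its low-count filter), over all rats and in a model of genotype by number range. Benjamini-Hochberg adjustment covered all genes tested, with a threshold of 0.05. Levels are scaled values in mice and CPM on TMM-scaled totals in rats. R 4.3.3 and DESeq2 1.42.0 were used for alternatives, and the scripts were tested on simulated data. Replicates differed by more than counting error: the lowest ratio of chi-square to degrees of freedom was 12.7 among 12 pairs of mice and 8.85 among 56 pairs of rats. Depth covers counting error only.

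The genes, lists and naming rule were chosen with earlier results of these data known. Values by animal are given for genes past the threshold in mice, the 10 largest called changes in rats, the 5 smallest p for the range difference, and PPARA, PPARGC1A, CPT1A and PDK4; of the wider list, the 3 largest called changes each way are given. One gene that the rule also named is not reported here. Mouse lengths are unions of GENCODE vM21 exons, and promoters are RefSeq's for GRCr8, with no coordinates converted.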

Additional observations from a re-analysis of the deposited data

Results flagged for a closer look

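The Ctns KO effect differed between rats 25 to 32 and rats 17 to 24 (edgeR interaction, Benjamini-Hochberg adjusted p under 0.05) for 14 genes. The differences on the log2 scale, second range minus first, were above 0 for UCP2 (1.12), ACSL5 (0.65) and BDH1 (0.45). They were below 0 for PPARA (-1.42), PPARGC1A (-0.80), HADH (-0.52), ACAT1 (-0.48), SLC27A2 (-0.44), ACAD11 (-0.44), ACADM (-0.41), ETFDH (-0.37), ACSL1 (-0.36), OXCT1 (-0.29) and ACSL3 (-0.28). Of the 38 genes tested, 31 had a change further from 0 in the second range. The share of all genes with this order is not given here, so the count has no background beside it. Over all genes, edgeR called 1.91% lower and 5.05% higher in the first range, and 26.2% and 23.7% in the second. Of the PT markers, 6 of 10 also had a lower effect in the second range (edgeR), where 7.64% of all genes had. What the ranges stand for cannot be told apart from the number itself.

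Among 68 sets of values by gene and group, 1 held an animal that stood apart by Dixon's 95% criterion, where chance gives about 1 in 20; only mouse groups of 4 and rat groups of 8 were examined. PPARA in Ctns WT mouse 2 read 3.37, with the next mouse at 2.01.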

How the results depend on the processing

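Every called gene of the rats kept its direction and its call under the 4 alternatives over all rats (DESeq2 size factors, DESeq2's test, no filter on low counts, number range as a covariate). ACAD11 did so under the 4 alternatives for mice, and HADH under 3, with an adjusted p of 0.0502 at a pseudocount of 1, where 1 mouse gene was lower. The number of genes with a higher effect in rats 17 to 24 was 1 when those 8 rats were fitted alone. DESeq2 on those rats called 13 lower, with no share of all genes beside it, and the cause was not tested. Leaving out 1 animal gave 0 to 6 lower and 0 to 0 higher genes in mice, 15 to 18 lower and 3 to 4 higher in all rats, 2 to 8 and 1 to 2 in rats 17 to 24, 20 to 23 and 4 to 4 in rats 25 to 32, and 9 to 17 genes differing between the ranges. Log2 fold changes that crossed 0 were never called: in mice PPARA ran from -0.17 to 0.11, CPT1A from -0.069 to 0.18 and PDK4 from -0.12 to 0.40, and in rats PDK4 ran from -0.030 to 0.12. The number of animals, more than the depth, limits these comparisons. No paired analysis was possible because the animal numbers are not shared between the groups.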

Other observations

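Among the Ctns WT mice, animals 1 and 4 were both above animals 2 and 7 for 17 of the 40 genes, where 19.1% of all 13132 symbols had this order, and both below them for 11, where 19.7% had. The genes with the higher values in mice 1 and 4 were SLC27A4, FABP1, SLC25A20, CPT2, ACADVL, ACADL, ACADM, ACADS, ACAD11, HADHA, HADH, ACAA2, ECI1, DECR1, ETFB, ETFDH and UCP2. FABP1 read 0.755 and 0.804 in mice 1 and 4 and 0.1 and 0.127 in mice 2 and 7, with Ctns KO mice at 0.0633 to 0.152. OXCT1 had the opposite order, at 19.6 and 21.4 against 33.8 and 35.7. This order was noticed in the values of these mice and then counted, it rests on 4 mice of 1 genotype, and it was not tested.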
